A study of Mus musculus with 6 samples.

Results

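The proteasome is the protease of the cytosol and nucleus that degrades proteins tagged with ubiquitin, and the mRNAs of its standard subunits were followed here in wild-type 4T1 cells and in clones with a knockout of the gene of Ki-67. The members are the protein-coding genes of GENCODE mouse release 21 whose symbols are Psma, Psmb, Psmc or Psmd followed by a number, without the interferon-inducible Psmb8, Psmb9 and Psmb10. There were 36 such genes among the 54146 in the count tables, and the choice used names and not measured values. 4T1 is an established line of mouse mammary carcinoma cells of BALB/c origin. The data are 6 libraries of ribosomal RNA-depleted total RNA in 3 groups of 2: wild type (WT), clone 1 and clone 2, the clones being lines with the genotype Mki67-/-. All groups were labelled as the same cells in the same medium with foetal serum and no added agent. Genotype and clone are thus the differences that the labels name. Any batch that coincided with group could not be told apart from them. Each knockout line is 1 clone, so a difference between a clone and WT cannot be told apart from the history of that clone, and the labels do not say whether WT cells were cloned.

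The proteasome has a barrel-shaped core, the 20S particle, and a cap, the 19S particle. The outer rings of the core are made of alpha subunits (Psma genes), which gate the entrance. The inner rings are made of beta subunits (Psmb genes), of which Psmb5, Psmb6 and Psmb7 carry the chymotrypsin-like, caspase-like and trypsin-like active sites. In the cap, a ring of ATPases (Psmc genes) unfolds substrates and drives them into the core, and the non-ATPase proteins (Psmd genes) bind and remove ubiquitin and hold the parts together. Subunits are built into the particle in fixed ratios, and their genes are known to be raised together by the transcription factor Nfe2l1 when proteasome activity falls short, through antioxidant response elements in their promoters.

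The label "constitutive" held for most members and not for all. Psma8, an alpha subunit of the testis, and Psmb11, a beta subunit of the thymus, had 0 reads in every library, where 3 reads would have been 0.132 to 0.288 CPM, the reads of a gene scaled by library size. The other 34 members had enough reads to be tested, with 1776 to 38396 reads each over the 6 libraries. Psmd5, Psmd9 and Psmd10 are chaperones of cap assembly and not subunits of the finished particle. A log2 fold change is given with its standard error (SE). A gene was called when the Benjamini-Hochberg adjusted p of edgeR's quasi-likelihood test over 13755 genes was under 0.05.

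The libraries held 10428970 to 22658499 gene reads. Mki67 was at 736 and 647 CPM in WT, at 85.8 and 102.5 in clone 1 and at 39.93 and 52.75 in clone 2, in the direction of the labels. Epithelial markers were present, with a sum of 3198 and 3608 CPM in WT and 5198 to 5566 in the clones over 7 genes, of which Krt5 was at 0. Markers of immune cells summed to at most 0.135 CPM over 6 genes, with Cd3e and Adgre1 among those at 0. Of 7 fibroblast and endothelial markers 1 had enough reads to be tested, Pdgfra, at a mean of 39.2 CPM in WT and 14.4 in each clone; Cdh5 and Kdr were at 0. The epithelial and fibroblast marker levels moved with genotype, and their part in the results below was not tested. As these are bulk samples, fewer cells with a transcript and less of it per cell cannot be told apart.

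Taken as a sum, proteasome mRNA was lowest in clone 1 and highest in clone 2. The 36 members summed to 5266 and 5160 CPM in WT. The sums were 4439 and 4776 CPM in clone 1 and 5659 and 5690 CPM in clone 2. As a share of gene reads this was 0.512% and 0.5185% for WT, 0.4457% and 0.4688% for clone 1 and 0.5619% and 0.5918% for clone 2, so the 3 groups did not overlap. The members thus did not move as 1 block with genotype: they were mostly below WT in clone 1, and on both sides of WT in clone 2.

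In clone 1 against WT, 17 of 34 members were lower and 1, Psmd8, was higher. Over all genes tested, 50.9% were called in this comparison, 26.2% lower and 24.7% higher. The members leaned to the lower side of this background. The median log2 fold change of the members was -0.309, and that of all genes tested was -0.014. The log2 fold change was below 0 for 28 of the 34 members. For 23 members both clone 1 libraries lay below both WT libraries, and the share of all genes that did so was not computed. Without replicate 1 of clone 1, which had the lower sum, 6 members were called lower, with a median of -0.239, and 39.0% of all genes were called.

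In clone 2 against WT, 7 members were higher and 7 lower. The background was 53.4% of genes called, 25.3% higher and 28.2% lower, so the members' share on either side was below that of all genes. Their median was -0.001, against -0.023 for all genes. For 11 of the 34 members the ranges of the clone 2 and WT libraries overlapped, and the share of all genes with such an overlap was not computed. With upper-quartile scaling the split became 5 higher and 8 lower, where 53.9% of all genes were called. Without replicate 1 of clone 2 the members' median was 0.028, and fewer calls were made among the members and among all genes.

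**Figure D1:**
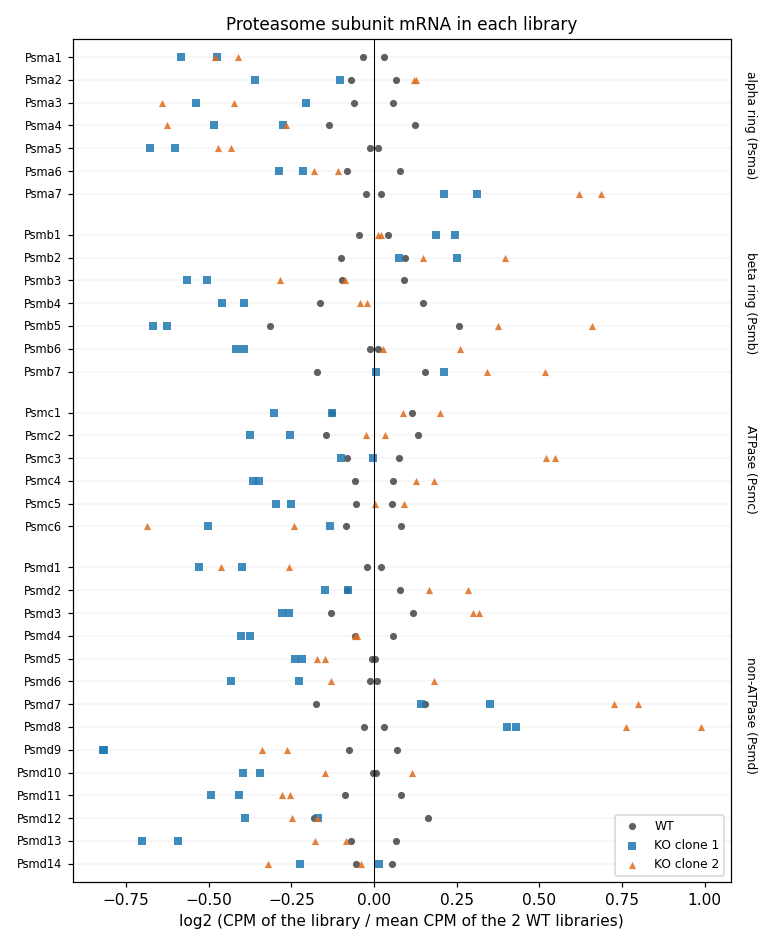
Each row is a tested member, and each point is 1 library, placed at the log2 ratio of its CPM to the mean of the WT libraries (circles WT, squares clone 1, triangles clone 2). Clone 1 points lie to the left of both WT points for 23 of 34 members, a count for which the share over all genes was not computed. Psmd8 and Psmd7 have their clone 2 points farthest to the right.

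The active-site subunits did not share a pattern against WT, but each had its highest mean in clone 2. Psmb5, the chymotrypsin-like subunit (chromosome 14, 54614119 to 54618022, GRCm38), was at 12.3 and 18.4 CPM in WT, at 9.65 and 9.94 in clone 1 and at 19.9 and 24.3 in clone 2. All 3 groups were apart, with clone 1 lowest. Its log2 fold change was -0.67 ± 0.18 (SE, edgeR adjusted p = 0.00604) in clone 1 against WT and 0.51 ± 0.18 (0.0229) in clone 2 against WT. The WT libraries were far apart, and the first call was lost without replicate 2 of WT (adjusted p = 0.174), the second without replicate 1 of WT (0.156) or replicate 2 of clone 2 (0.252). Between the clones Psmb5 was 2.26-fold higher in clone 2 (log2 1.18 ± 0.18, adjusted p = 0.000275), and this call held with each library left out.

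Psmb6, the caspase-like subunit (chromosome 11, 70525367 to 70527858), was at 170.2 and 173 CPM in WT, at 128.5 and 131 in clone 1 and at 205.5 and 175 in clone 2. Clone 1 was apart from both other groups, while the lower clone 2 library was just above the WT range. The log2 fold change was -0.40 ± 0.12 (edgeR adjusted p = 0.00839) in clone 1, 0.15 ± 0.12 (0.30) in clone 2, and 0.55 ± 0.12 (0.0034) between the clones. The clone 1 call was lost without either library of clone 1 (0.0825 and 0.0683), and the difference between clones without replicate 1 of clone 2 (0.0615). Psmb7, the trypsin-like subunit (chromosome 2, 38588036 to 38644087), was at 149.5 and 119 CPM in WT, at 135 and 156 in clone 1 and at 192 and 170.4 in clone 2. The clone 1 libraries fell within and above the WT range. Psmb7 was called higher in clone 2 against WT (log2 0.43 ± 0.13, adjusted p = 0.011), a call lost without replicate 1 of clone 2 (0.111) or replicate 2 of WT (0.0808), and was not called between the clones (0.32 ± 0.13, adjusted p = 0.0869).

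Each active-site subunit has an interferon-inducible counterpart that can take its place in the core. Per kilobase of exon, Psmb5 mRNA was 1.67 and 1.65 times as high as Psmb8 in WT. The ratio was 54.9 and 41.6 for clone 1 and 90.8 and 81.3 for clone 2. Psmb8 was at 27.8 and 41.9 CPM in WT and at 0.661 to 1.12 in the clones. Before division by length, Psmb8 was above Psmb5 in both WT libraries, where Psmb5 was at 12.3 and 18.4 CPM. The WT ratio thus rests on the merged exon lengths used, 899 bases for Psmb5 and 3381 for Psmb8. The ratio of Psmb6 to Psmb9 was 96.4 and 79.5 in WT and 517 to 791 in the clones, where Psmb9 was at 0.432 to 0.766 CPM. The ratio of Psmb7 to Psmb10 was 2.39 to 4.58 in WT and 3.25 to 5.09 in the clones, so the ranges overlapped.

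Because the Psmb5 level differed most between the clones, the sequence upstream of it is shown, together with the promoter windows of all members that hold the core letters of an antioxidant response element. Promoters are RefSeq windows on GRCm38.p6 of 250 bases before and 50 after a gene's start, and 29 of the 36 members were matched. The 7 without a match were Psmc3, Psma8, Psmb1, Psmb2, Psmb7, Psmd3 and Psmd7. The letters TGACNNNGC, searched on both strands, were in 5 of the 29 matched members (17.2%), against 14% of the 27025 genes with a promoter in the table. Capitals mark the match, which appears as its reverse complement where it lies on the opposite strand, and each window reads 5′ to 3′ along the gene.
Psmb5, chr14:54618024-54618052, minus strand: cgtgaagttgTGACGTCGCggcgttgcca
Psmb6, chr11:70525338-70525366, plus strand: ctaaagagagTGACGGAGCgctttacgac
Psmd9, chr5:123228149-123228177, plus strand: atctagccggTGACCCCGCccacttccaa
Psmc6, chr14:45329587-45329615, plus strand: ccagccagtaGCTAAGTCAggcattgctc
Psmd12, chr11:107479278-107479299, plus strand: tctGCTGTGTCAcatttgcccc
In Psmb5, Psmb6 and Psmd9 the match runs in the direction of the gene and begins at positions -47, -9 and -31 from the RefSeq start, and in Psmc6 and Psmd12 it begins at -227 and -247. The first 3 of these genes were higher in clone 2 than in clone 1, and the other 2 were not called between the clones. Whether the place of a match goes with the call was not tested. The Psmd9 window lies inside the GENCODE gene used for counting, which starts at 123169413.

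The longer stretch upstream of Psmb5 shows the match near its end, next to the start of the gene.
Psmb5 upstream, chr14:54618023-54618245, minus strand: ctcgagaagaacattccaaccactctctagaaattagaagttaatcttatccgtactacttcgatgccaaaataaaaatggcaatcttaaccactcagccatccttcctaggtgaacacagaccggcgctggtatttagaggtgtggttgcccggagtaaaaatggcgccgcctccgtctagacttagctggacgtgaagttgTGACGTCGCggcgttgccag
The match in Psmb5 also contains TGACG, the letters that begin a cAMP response element. Of the matched members called higher in clone 2 than in clone 1, 3 of 13 held the antioxidant response letters, and of the other tested ones 2 of 15. The CCAAT box, the site of the Nfya, Nfyb and Nfyc complex, was searched in the same way and was in 12 of 29 members (41.4%), against 41.1% of those genes; it was in 4 of the 13 and 7 of the 15. Such matches describe the letters and show no binding.

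Among the beta subunits without an active site, Psmb3 and Psmb4 were lower in clone 1 than in WT. Psmb3 was at 49.5 and 43.5 CPM in WT, at 31.4 and 32.8 in clone 1 and at 43.7 and 38.2 in clone 2. Clone 1 was apart from WT, and the clone 2 and WT ranges overlapped. The log2 fold change was -0.53 ± 0.13 (edgeR adjusted p = 0.00252) in clone 1 and -0.18 ± 0.13 (0.244) in clone 2, while both clones together against WT gave -0.36 ± 0.11 (0.0113), a call lost without replicate 1 of WT (0.0833). Psmb4 was 0.743 times its WT level in clone 1 (adjusted p = 0.00793), a call lost without replicate 1 of clone 1 or replicate 2 of WT (highest 0.0808). Psmb1 and Psmb2 were not called in any of the comparisons, with log2 fold changes of 0.22 (clone 1) and 0.02 (clone 2) for Psmb1 and of 0.17 and 0.28 for Psmb2.

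Of 7 alpha subunits tested, 4 were called lower in each clone, and 1, Psma7, was called higher in clone 2. Psma5 was at 36.0 and 36.7 CPM in WT, at 22.7 and 23.9 in clone 1 and at 26.2 and 26.9 in clone 2. Psma1 was at 199.5 and 191 CPM in WT, at 130.2 and 140.3 in clone 1 and at 139.8 and 147 in clone 2. For both genes every knockout library lay below every WT library, and the clones were close to each other. Psma5 had log2 fold changes of -0.64 ± 0.12 (edgeR adjusted p = 0.000397) in clone 1 and -0.45 ± 0.12 (0.00521) in clone 2, and Psma1 of -0.53 ± 0.11 (0.000902) and -0.45 ± 0.11 (0.00299). These 4 calls held with each library left out. Psma3, whose tail binds other proteins, and Psma4 were also called lower in each clone, at log2 -0.36 and -0.37 in clone 1 and -0.52 and -0.43 in clone 2. The clone 1 call of Psma3 was lost in 8 other settings, among them DESeq2, limma-voom and 4 fits with a library left out (highest adjusted p = 0.431). That of Psma4 was lost in 5, and its clone 2 call in 3 (highest 0.261 and 0.234).

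Psma7, chosen for mention after its values were seen, went the other way. It was at 271 and 263 CPM in WT, at 309 and 331 in clone 1 and at 430.0 and 411 in clone 2, with no overlap between the groups. The change was 0.66 ± 0.11 on the log2 scale in clone 2 (edgeR adjusted p = 0.000115) and 0.26 ± 0.11 in clone 1, which missed the threshold (0.0564). Psma6 was at 229 and 205 CPM in WT, at 178 and 187 in clone 1 and at 201 and 191 in clone 2, and was not called in any comparison. Psma2 was not called against WT either, but was 1.28-fold higher in clone 2 than in clone 1 (adjusted p = 0.0467). This call was lost in all 4 fits that left out a knockout library.

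In the ATPase ring, which is built from 1 copy each of 6 related proteins, Psmc3 and Psmc6 moved in different directions. Psmc3 (chromosome 2, 91054009 to 91066369) was at 279 and 311 CPM in WT, at 275.5 and 295 in clone 1 and at 432 and 424 in clone 2. Clone 1 overlapped WT, and clone 2 was above both. The log2 fold change was -0.05 ± 0.11 in clone 1 (edgeR adjusted p = 0.734), 0.53 ± 0.11 in clone 2 (0.000821) and 0.58 ± 0.11 between the clones (0.00189), and the last 2 calls held with each library left out. Psmc6 was at 179.5 and 160.0 CPM in WT, at 119.9 and 155 in clone 1 and at 105.4 and 143.5 in clone 2. All its knockout libraries were below WT, but the libraries within each clone were far apart. It was called lower in clone 2 (-0.45 ± 0.16, adjusted p = 0.026) and not in clone 1 (-0.30 ± 0.16, 0.117), and the clone 2 call was lost without replicate 1 of clone 2 (0.303) and without either WT library (0.197 and 0.0694). Psmc2 and Psmc4 were lower in clone 1, at 0.805 and 0.78 times WT. The call of Psmc2 was lost in 9 other settings, 5 of them with a library left out (highest edgeR adjusted p = 0.362), and that of Psmc4 in 4, among them without either clone 1 library (0.125). Psmc1, Psmc4 and Psmc5 were 1.28-, 1.43- and 1.25-fold higher in clone 2 than in clone 1, so that with Psmc3 a total of 4 of 6 ATPases were called between the clones; those of Psmc1 and Psmc5 were lost in 9 other settings each.

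With both clones together against WT, the largest changes in either direction were those of non-ATPase genes, Psmd8 and Psmd9. Psmd8, a lid subunit that completes lid assembly (chromosome 7, 29174188 to 29180701), was at 194 and 186 CPM in WT, at 251 and 256 in clone 1 and at 376.5 and 322 in clone 2. The 3 groups did not overlap, with WT lowest. Its log2 fold change was 0.42 ± 0.12 in clone 1 (edgeR adjusted p = 0.00689), 0.88 ± 0.12 in clone 2 (1.07e-05) and 0.46 ± 0.12 between the clones (0.0095). The clone 1 call was lost without replicate 2 of clone 1 (0.0583), and that between clones without either library of clone 1 (0.102 and 0.0816) or replicate 1 of clone 2 (0.109). Psmd7, the inactive partner of the deubiquitinase Psmd14 and also mentioned after its values were seen, was at 159 and 127 CPM in WT, at 158 and 183 in clone 1 and at 237 and 249 in clone 2. Clone 1 overlapped WT and clone 2 did not, with a log2 fold change of 0.77 ± 0.13 in clone 2 (adjusted p = 0.000122). Psmd14 itself was not called in any comparison, but with each chromosome's median removed it was lower against WT in clone 1 (-0.36, adjusted p = 0.0318) and clone 2 (-0.46, 0.00692).

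Psmd9, the assembly chaperone, was the member that fell most in clone 1. It was at 48.6 and 53.8 CPM in WT, at 29.0 and 29.1 in clone 1 and at 42.7 and 40.5 in clone 2. Both clones were below WT and clone 1 was below clone 2. The log2 fold change was -0.82 ± 0.12 in clone 1 (edgeR adjusted p = 3.86e-05), a call that held with each library left out, and -0.30 ± 0.12 in clone 2 (0.043), which was lost with any library but replicate 1 of WT left out (0.089 to 0.168). Of the other chaperones, Psmd10 was 0.774 times WT in clone 1 (adjusted p = 0.0359), a call lost in 8 other settings, among them DESeq2 and the fits without any 1 library of WT or clone 1 (highest adjusted p = 0.26). Psmd5 was not called, but with each chromosome's median removed it was lower in clone 1 (-0.48, 0.00171) and clone 2 (-0.45, 0.00258), and with upper-quartile scaling it was called lower in clone 1. Psmd3, a lid scaffold, was at 124 and 147 CPM in WT, at 113 and 112 in clone 1 and at 168.5 and 166.6 in clone 2. Clone 1 lay below WT and clone 2 above it. Psmd3 was called in clone 2 against WT (0.31 ± 0.12, adjusted p = 0.0364), which was lost without each library except replicate 2 of WT (0.0694 to 0.161), and between the clones (0.58 ± 0.12, 0.00267), which held with each library left out.

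Against WT, the remaining cap genes were lower in clone 1 or not called. Psmd1, the large scaffold of the base, was 0.726 times WT in clone 1 and 0.781 times in clone 2, both called (edgeR adjusted p = 0.00355 and 0.0169). Psmd13 and Psmd11, subunits of the lid, were 0.639 and 0.733 times WT in clone 1 (0.000208 and 0.00493), and in clone 2 their log2 fold changes of -0.13 and -0.26 were not called. Psmd4, a ubiquitin receptor, and Psmd6 were 0.763 and 0.797 times WT in clone 1 (0.00733 and 0.0441). The call of Psmd6 was lost in 8 other settings, among them DESeq2, limma-voom and the fits without any 1 library of WT or clone 1 (highest adjusted p = 0.63), and that of Psmd4 without either clone 1 library (highest 0.10). The clone 1 calls of Psmd1 and Psmd11 were lost without replicate 1 of clone 1, as was the clone 2 call of Psmd1 without replicate 1 of clone 2. Psmd2, the scaffold that receives ubiquitin shuttles, and Psmd12 were not called against WT, at log2 -0.11 and -0.27 in clone 1 and 0.23 and -0.21 in clone 2.

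**Figure D2:**
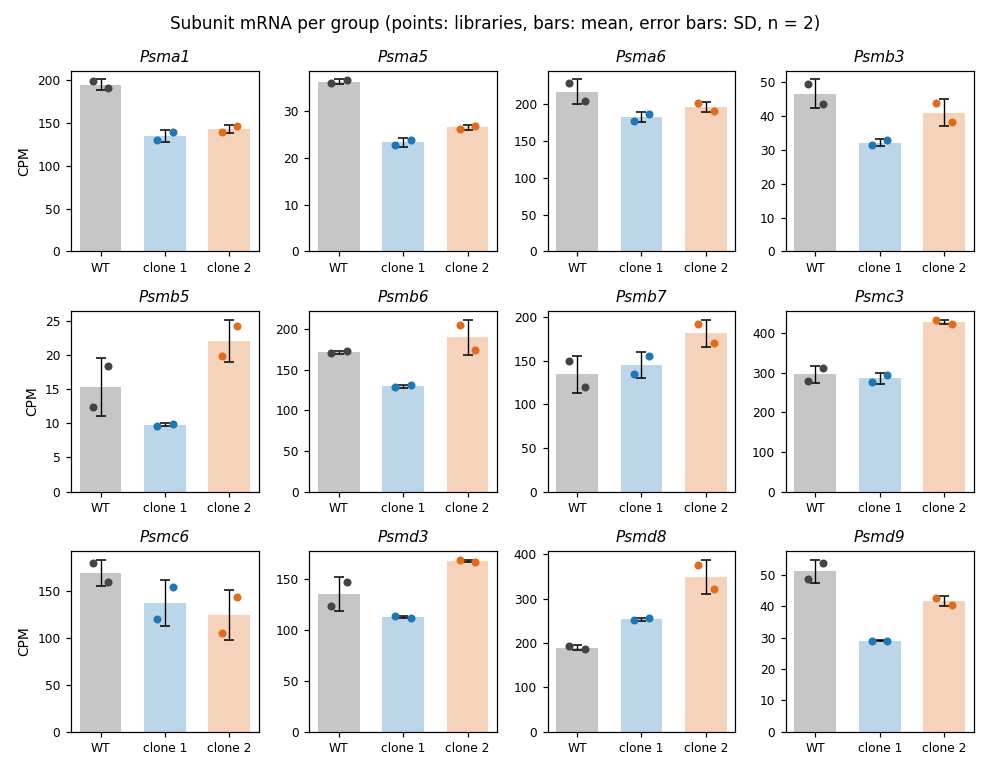
Each panel shows 1 member in CPM on a linear axis from 0, with bars for the group mean, error bars for the SD (n = 2) and points for the libraries. Psma1 and Psma5 are lower in both clones, Psmd8 is higher in both, and Psmb5, Psmb6, Psmc3 and Psmd3 separate clone 2 from clone 1.

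With the clones set together against WT, 4 members were higher (Psmd8, Psmd7, Psma7 and Psmc3) and 10 lower (Psmd9, Psma5, Psma1, Psma3, Psmd1, Psma4, Psmd13, Psmc6, Psmb3 and Psmd11). The background was 56% of genes called, 26.6% higher and 29.4% lower, so 14 of 34 members (41.2%) was below the share of other genes. The median was -0.149, against -0.022 for all genes. With upper-quartile scaling the split was 3 higher and 15 lower, where 56.8% of all genes were called. The largest changes were those of Psmd9, which fell by 0.56, and Psmd8, which rose by 0.65 on the log2 scale. The calls of Psmc3 (log2 0.24, adjusted p = 0.046) and Psmc6 (-0.37, 0.0266) were lost in most fits with a library left out: Psmc3 kept its call without replicate 2 of WT, and Psmc6 without replicate 2 of either clone.

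Between the clones the members leaned 1 way. In clone 2 against clone 1, 16 of 34 members (47.1%) were called higher and 0 lower, where 12.1% of all genes were called higher and 11.4% lower, 23.5% in all. At an unadjusted p under 0.05 edgeR gave 21 higher and 0 lower, and the share of all genes at that threshold was not computed. DESeq2 and limma-voom also called 0 members lower at the adjusted threshold, where they called 19.1% and 22.1% of all genes in either direction. The median log2 fold change was 0.338, against -0.003 for all genes, and it was above 0 for 29 members. For 25 members (73.5%) both clone 2 libraries lay above both clone 1 libraries, where 34% of all genes did so. The share called was 2 of 7 alpha subunits, 3 of 7 beta subunits, 4 of 6 ATPases and 7 of 14 non-ATPase genes. The folds not yet given were Psmb4 (1.31-fold), Psmd13 and Psmd7 (1.43-fold each), Psma7 (1.31-fold), Psmd2 (1.27-fold), Psmd4 (1.26-fold) and Psmd9 (1.43-fold). The size of the call list rested on having both libraries of each clone. It fell to 4 without replicate 1 of clone 1, 6 without replicate 2 of clone 1, 4 without replicate 1 of clone 2 and 9 without replicate 2 of clone 2, while the share of all genes called in either direction fell to 12.1%, 9.82%, 5.25% and 13.6%. The median was 0.262 to 0.378 with 1 library left out. Psmb5, Psmc3 and Psmd3 were called in each of them. Clone 1 and clone 2 were compared with the same WT libraries, which also entered the estimate of spread for the difference between the clones. With either WT library left out, the members' median between the clones was 0.342, and more calls were made among the members and among all genes.

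Genes of some chromosomes moved together between the clones. On chromosome 14, where Psmb5, Psmc6 and Psmd6 lie, the median gene was 0.332 higher in clone 2 than in clone 1 on the log2 scale, and on chromosome 17, where Psmb1 lies, it was -0.345. The 20 tested genes nearest to Psmb5 had a median of 0.468, against 1.18 for Psmb5 itself, and those nearest to Psmb6 had 0.34, against 0.55. Those nearest to Psmc3 and Psmd3 had 0.079 and 0.121. Over the 34 members the difference from the neighbours' median was above 0 for 31, with a median of 0.296. In clone 1 against WT it was below 0 for 27, with a median of -0.183. With each chromosome's median removed, 16 members were called higher between the clones, with Psmb2 gained, Psmc5 lost and Psmb5 at 0.85 (edgeR adjusted p = 0.00414). A single member, Psmc6, was called lower (-0.47, 0.048). With this step 19.1% of all genes were called between the clones, where the main fit called 23.5%. Against WT, 46.2% were called in clone 1, 50.7% in clone 2 and 52.6% for both clones together. The main fit called 50.9%, 53.4% and 56%. The same step ended 9 of the members' calls in clone 1 against WT, those of Psmb5 (0.0668), Psmb6 (0.283) and Psmb3 (0.0797) among them. It also ended 7 in clone 2 against WT, among them those of Psmb5 (0.0559), Psmb7 (0.383), Psmc3 (0.0817), Psmd9 (0.367) and Psma5 (0.0756). It added 4 lower calls in clone 1 (Psmd5, Psmd14, Psmc3 and Psma2) and 5 calls in clone 2, lower for Psmd5 and Psmd14 and higher for Psmb2, Psmb6 and Psmd2. For both clones against WT the call of Psma7 (0.117), Psmd7 (0.214) and 4 other members ended, and Psmc3 turned to -0.03 (0.806), while Psmd5 (-0.47, 0.000504) and Psmd14 (-0.41, 0.00515) were called lower.

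**Figure D3:**
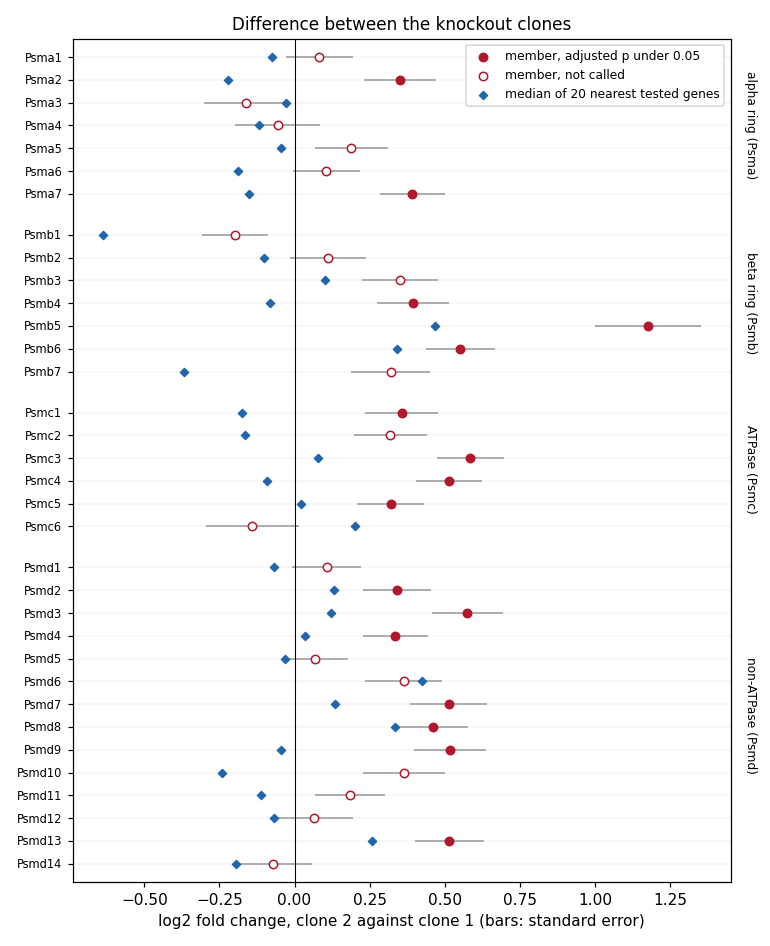
Circles give each member's log2 fold change of clone 2 against clone 1 with its standard error (filled where the adjusted p is under 0.05), and diamonds give the median of the 20 nearest tested genes. The circle is to the right of the diamond for 31 of 34 members, and Psmb5, at 1.18, is farthest to the right.

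Read sharing limits what can be said of Psmb5. Of the 50-base stretches of its transcript, 50% are also found in processed pseudogenes, of which Gm3375 on chromosome 7 had 3322 reads, more than the 1776 assigned to Psmb5. Reads that fit both places are not counted for either gene, and part of those counted for Gm3375 may come from Psmb5, so the Psmb5 level is uncertain. In addition, 12.1% of the exon bases of Psmb5 lie under Mir686 on the same strand, where reads may be left out as ambiguous. Gm3375 was at 25.8 and 30.6 CPM in WT, at 19.97 and 21.1 in clone 1 and at 39.9 and 40.6 in clone 2, the same order of groups as for Psmb5. Its log2 fold change between the clones was 0.97 ± 0.13 (edgeR adjusted p = 8.45e-05). With the reads of both genes added together, which was tried after seeing the data, the value was 1.04 (adjusted p = 7.23e-05). Psmb3, Psma5, Psmd2, Psma4, Psma3, Psmd11 and Psmc1 share 17.6% to 55.8% of such stretches with other genes, and those of these genes that were looked up had at most 81 reads each. Psmd9 has 25.5% of its exon bases under the antisense gene Gm26745, and Psmb7 11.8% under Nek6, but the counts used were those of 1 strand.

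Subunits that enter the particle in fixed ratios had mRNA levels that were far apart. Per kilobase of exon, Psma6 was the most abundant member in WT, at 175.7 ± 13.7 CPM per kb (SD, n = 2), followed by Psmb4 (130.0 ± 19.8), Psmd4 (115.5 ± 6.59) and Psmc3 (113.3 ± 8.66); the last 3 did not differ beyond their spread. Psmd9 was the least abundant, at 7.06 ± 0.505 CPM per kb, and Psma3 the least abundant subunit of the core, at 9.39 ± 0.544. Within the core, the highest level was on average 18.7 times the lowest in the WT libraries. It was 22.3 and 18.6 times the lowest for clone 1 and 27.1 and 22.1 times for clone 2. The median was 84.4 CPM per kb for the 6 ATPases, 50.6 for the beta, 36.1 for the alpha and 40.5 for the non-ATPase genes. The exon length is that of all annotated transcripts of a gene merged, which can lower the value of genes with long, little-used exons. For Psmd9 it is 7248 bases, where the longest coding transcript has 2597, and for Psma7 it is 3071 against 1157. For Psma6 the lengths are closer, at 1234 and 1042 bases. The order of members and of subunit classes, with Psmd9 lowest and Psma6 highest, thus rests on the length used. Reads lost to pseudogenes can also lower the value of Psma3, Psma5, Psmb3 and Psmb5.

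**Figure D4:**
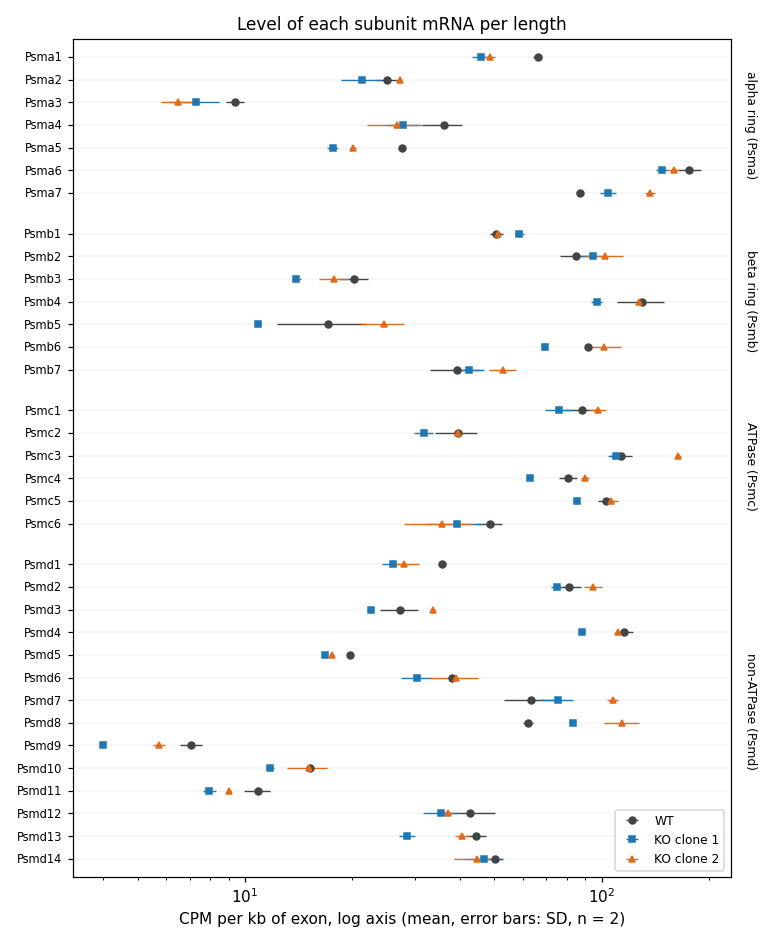
Levels per kilobase of exon are shown on a log axis as the mean of each group with its SD (n = 2). Psma6 is highest and Psmd9 lowest in WT, and the spread between members is wider than the distance between groups for any member.

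Other genes of the system were taken from lists of known roles. Of 5 subunits outside the naming rule, Adrm1, a ubiquitin receptor of the cap, was higher in both clones together (log2 0.69 ± 0.12, edgeR adjusted p = 0.000162) and Psmb8 and Psmb9 were lower (-5.31 and -2.89). Of 5 genes for activators and an inhibitor of the core, Psme1 and Psme2, the interferon-inducible cap known as PA28, were lower (-1.16 and -1.04), as was Psme4 (-0.42), while Psmf1, an inhibitor in the test tube, was higher (0.93 ± 0.12, 4.88e-06), as was Psme3 (0.29). Of 7 assembly factors tested, 4 were higher and 1 lower: Psmg1 (0.57) was among the former, and Pomp, the chaperone of core maturation, was the latter (-0.46 ± 0.10, 0.00125). An eighth, Paaf1, was not analysed here. Pomp was at 112 CPM in both WT libraries and at 75.8 to 92.0 in the clones, with no overlap.

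Of 12 associated receptors, deubiquitinases and ligases, 6 were higher and 2 lower in the clones together, with Ubqln4 (0.61 ± 0.11, edgeR adjusted p = 0.000132), Ubqln1 (0.45) and Txnl1 (0.44) among the former. Of 9 ubiquitin and delivery genes 2 were higher and 3 lower, with the ubiquitin-activating enzymes Uba1 (0.45 ± 0.11, 0.00256) among the former and Uba6 (-0.46 ± 0.10, 0.00108) among the latter. Of 12 transcriptional regulators 7 were higher and 3 lower. Maff, a small Maf protein that pairs with Nfe2l1 and Nfe2l2, was higher (1.66 ± 0.18, 2.29e-06), as were Nfya (0.73) and Nfyc (0.77). Nfyb, of the same complex as Nfya and Nfyc, was called lower in clone 2 against WT. That call ended with each chromosome's median removed (0.031, edgeR adjusted p = 0.859). Nfe2l2, the oxidative stress factor, was lower in the clones together (-0.78 ± 0.12, 3.8e-05). These counts are to be read against the 56% of all genes called.

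Nfe2l1 itself, mentioned after its values were seen, was at 378 and 399 CPM in WT, at 365.5 and 333 in clone 1 and at 440 and 484 in clone 2. The summed members had the same order of groups, and a link between them and Nfe2l1 was not tested. Nfe2l1 was not called against WT in clone 1 (-0.15 ± 0.11, edgeR adjusted p = 0.277) or clone 2 (0.25 ± 0.11, 0.0774). It was higher in clone 2 than in clone 1 (0.40 ± 0.11, 0.0189). Nfe2l3, its relative, went the other way between the clones (-1.56 ± 0.18, 2.9e-05). Its CPM were 7.69 and 7.38 in WT, at 9.04 and 9.44 in clone 1 and at 3.003 and 3.24 in clone 2.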

How the data were processed

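Trizol-extracted total RNA of 6 libraries (WT, clone 1 and clone 2, 2 each) went through ribosomal RNA depletion and stranded library preparation, per the labels' protocols. The submitters' processing notes list FastQC, STAR 2.6.0c and GRCm38. The deposited values are the authors' raw counts per Ensembl gene, with a column for each strand setting, and 24.7% to 29.3% of reads, mapping to several places, are in no gene. Column 4, the reverse-strand count, held 92.3% to 95.7% of stranded gene reads and was used. Summary rows without a gene were dropped. Symbols came from GENCODE M21, which matched 54079 of 54146 IDs.

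The members and lists were chosen with earlier results of these data known. In R 4.3.3, edgeR 4.0.16 kept 13755 genes (filterByExpr), scaled libraries by TMM and fitted 1 term per group to all 6 libraries (robust quasi-likelihood, 3 residual degrees of freedom, common coefficient of variation 10.35%), and p-values were Benjamini-Hochberg adjusted over all genes tested. The fit was tested on simulated data. No library was a copy of its replicate: counts within WT, clone 1 and clone 2 gave a chi-square per degree of freedom of 50.8, 11.81 and 16.37. Separate cultures are not stated, so p-values reflect library-to-library spread alone, and that may be technical. Values in every library are given for the active-site subunits, the 2 largest changes per subunit class against WT, the 4 smallest adjusted p-values between clones, the highest and lowest level per length and members under 10 reads. From each related list up to 4 called genes are named. The results of some genes in these lists are not reported here. Alternatives were DESeq2 1.42.0, limma 3.58.1 (voom), other scalings and filters, counts of both strands, a fit on just the groups compared, a replicate block, chromosome medians removed, no mitochondrially encoded genes, and fits without 1 library, in which the single library left in a group takes its spread from the others.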

Additional observations from a re-analysis of the deposited data

Results flagged for a closer look

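For 16 of 34 members the test between the clones found that the change against WT differed from clone to clone. In the same test 12.1% of all genes were called higher and 11.4% lower. The log2 difference, clone 2 minus clone 1, was 1.18 for Psmb5, 0.58 for Psmc3, 0.58 for Psmd3 and 0.55 for Psmb6. It was 0.52 for Psmd9 and 0.51 each for Psmd13, Psmd7 and Psmc4. It was 0.46 for Psmd8, 0.39 for Psmb4 and Psma7, 0.36 for Psmc1 and 0.35 for Psma2. Psmd2 and Psmd4 differed by 0.34 each and Psmc5 by 0.32.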

How the results depend on the processing

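Over all results and alternatives, 6147 values were rated the same, 388 lost a call and 179 gained a call. A further 4 turned sign, and 29 member counts or medians were rated as moved. For a gene, the same means that its call was kept, or that it had no call in either fit, whatever its sign. For a median it means a shift below the spread between replicates. For member counts it allows moderate changes, such as from 10 to 15 lower for both clones with upper-quartile scaling. Upper-quartile scaling gave medians of -0.222 for both clones, -0.365 for clone 1 and -0.089 for clone 2 against WT. Without a filter on low counts these were -0.072, -0.224 and 0.071. In that fit clone 1 had 3 members higher and 10 lower, and 27.8% of all genes were called. With chromosome medians removed the members' medians were -0.071, -0.239 and 0.113. There 1 member was higher in both clones against WT and 1 lower in clone 2 against clone 1, where 52.6% and 19.1% of all genes were called. DESeq2 and limma-voom each gave 2 members higher in clone 1, where they called 44.0% and 50.2% of all genes. Leaving out 1 library gave 0 to 2 members higher and 6 to 17 lower in clone 1, with medians of -0.365 to -0.229. It gave 5 to 7 higher and 2 to 7 lower in clone 2, with medians of -0.053 to 0.028, and 4 to 21 higher between the clones, with medians of 0.262 to 0.378. With chromosome medians removed, signs turned for Psmc3 (-0.032, adjusted p = 0.806) and Psmb1 (-0.244, 0.0386) in both clones, Psmb1 in clone 1 (-0.334, 0.0196) and Nfyb in clone 2 (0.031, 0.859) against WT. The cause of these shifts was not tested. Replicate numbers did not pair the libraries (r of deviations -0.156, 0.082 and 0.005 for the 3 pairs of groups). A replicate block gave 3 higher and 10 lower for both clones, and 1 and 15 for clone 1. It gave 6 and 6 for clone 2, and 11 and 0 between the clones. Of all genes it called 54.4%, 48.7%, 51.8% and 21.4% in these 4 comparisons. With 2 libraries a group and 3 residual degrees of freedom, small changes of single subunits could not be shown. A fit on the compared groups alone was not run for both clones against WT, since that comparison uses every group.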
